A study of Mus musculus with 26 samples.

Results

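The genes described here are 8 laminin chains (*Lama1*, *Lama2*, *Lama4*, *Lama5*, *Lamb1*, *Lamb2*, *Lamc1* and *Lamc3*) and 2 nidogens (*Nid1* and *Nid2*), 10 of the 16426 genes in the single-cell counts of mouse RPE/choroid. They were taken by name, with earlier results of these data known, and all 10 were found in both single-cell libraries and in both bulk tables. Laminins are heterotrimers of an α, a β and a γ chain that assemble into a sheet at the cell surface, and nidogens bind that sheet to the collagen IV network beneath it. In the back of the eye such basement membranes lie under the RPE and around the choriocapillaris, on either face of Bruch's membrane, and also wrap smooth muscle cells and the Schwann cells of choroidal nerves. The α chain carries most of the binding sites for cell surface receptors, so that chain usage differs between vessel walls, muscle and nerve.

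The single-cell RNA sequencing (scRNAseq) samples came from mice aged 3 months, with 1 B6129PF1/J library and 1 C57BL/6J library, each made from digested RPE/choroid of 1 male and 1 female eye and sorted for nucleated live cells. Because there was 1 library per strain, strain and library cannot be told apart, and cells are not replicates, so no test between clusters or strains exists. The *Ihh* comparison used whole RPE/choroid of 3 *Ihh* iΔEC/iΔEC and 3 *Ihh*+/+ mice on a C57BL/6J background, aged 6 months and given tamoxifen 12 weeks before sacrifice. Both genotypes carried *Cdh5*-CreERT2, a recombinase driven by an endothelial promoter, so that *Ihh* (Indian hedgehog) was deleted in endothelial cells (ECs) of the mutants, and the tamoxifen and the Cre were shared with the controls. The third comparison used GFP-sorted choroidal *Gli1* GFP/+ cells (strain label SWR/J), pooled from several female mice, expanded in culture, starved and then given DMSO or 100 nM SAG, an agonist of the Hedgehog receptor complex, for 24 h in 3 replicates each. The bulk values were deposited only as the mean FPKM of each group, a value scaled for gene length and library depth, so they are the authors' means and carry no spread between mice or cultures.

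The libraries held 3637 cells with 17168578 unique molecular identifiers (UMIs) in B6129PF1/J and 3928 cells with 15230413 UMIs in C57BL/6J, with medians of 3881 and 3174.5 UMIs per cell. The 13 deposited clusters were named by the study as RPE (1), ECs with high, medium and low *Kdr* (2 to 4), stromal cells (5 to 8), smooth muscle cells (9), melanocytes (10), hematopoietic cells (11) and Schwann cells (12 and 13). The summed RPE, smooth muscle, melanocyte, hematopoietic and Schwann markers were highest in the clusters of their names in both libraries, the endothelial markers in cluster 2 and the stromal markers in cluster 7. Stromal cluster 6 also carried pericyte markers, at a sum of 105 UMIs per 10,000 in B6129PF1/J and 101 in C57BL/6J against 3.16 and 2.98 in stromal cluster 5. Smooth muscle cells had a like sum, 97.4 and 103, and *Rgs5* made up most of it in both clusters. The libraries shared 22 cell barcodes, 0.605% and 0.560% of their cells.

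Levels are given as the UMIs of a gene per 10,000 UMIs of a cluster, with exact Poisson 95% intervals that cover counting error only. A pair of clusters was called apart where these intervals did not overlap, in the same direction, in both libraries. Of the 9 genes with at least 100 UMIs in each library, which leaves out *Lama1*, 5 had the same highest cluster in both (*Lama4*, *Lamb2*, *Lamc1*, *Lamc3* and *Nid2*), beside 49.3% of all 9664 such genes. For these 9 genes, Pearson's r of log2(UMIs per 10,000 + 0.1) between the libraries over the 13 clusters was 0.80 (*Lama4*) to 0.98 (*Lamb1*), a description over clusters of unequal depth.

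**Figure D1:**
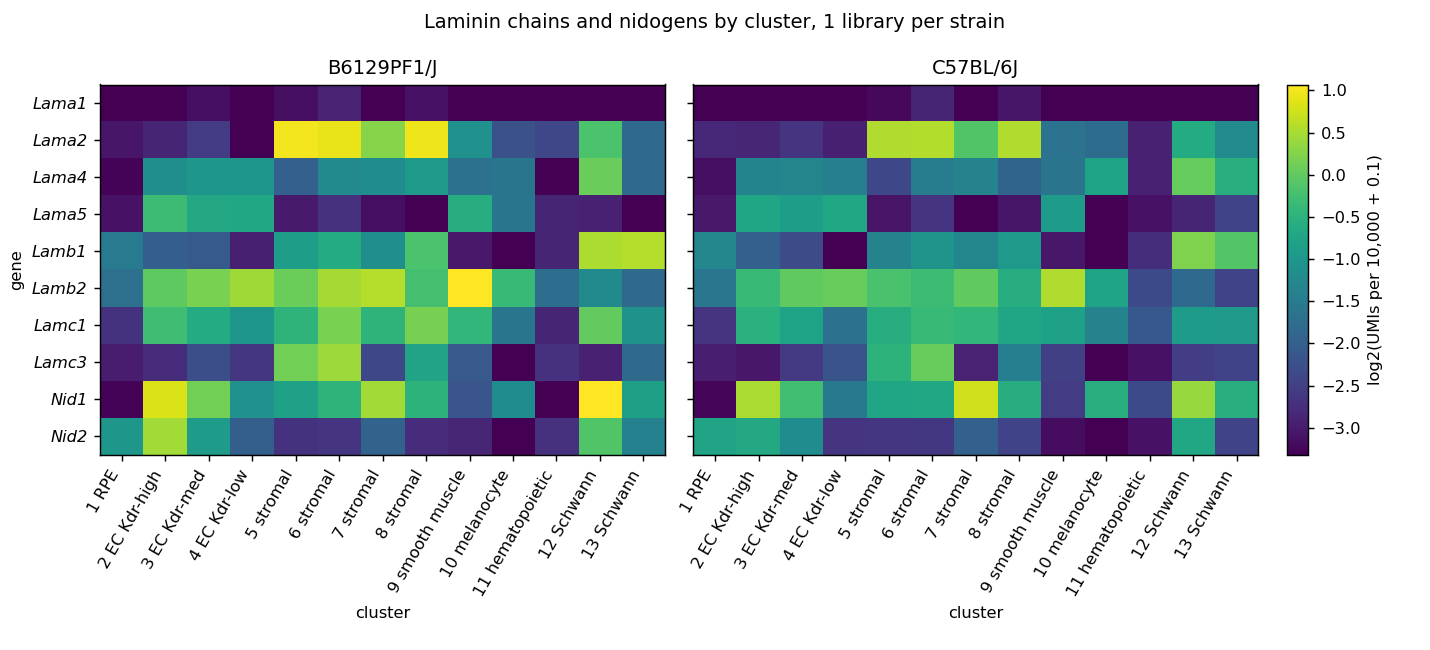
Levels of the 10 genes (rows) in the 13 clusters (columns) of each library, as log2(UMIs per 10,000 + 0.1). *Lama2* and *Lamc3* are bright in stromal columns, *Lama5* in EC and smooth muscle columns, *Lamb2* is brightest in smooth muscle, and the *Nid1* cell of the RPE column is dark while that of *Nid2* is not.

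The α chains divided the stroma from the endothelium. *Lama2*, the α2 chain found in muscle and nerve basement membranes, lies at chr10:26980036-27619758 on the minus strand (GRCm38). Of its UMIs, 90.3% of 1304 in B6129PF1/J and 89.0% of 848 in C57BL/6J came from the stromal clusters. It reached 1.89 (1.74–2.05) UMIs per 10,000 in cluster 5, 1.79 (1.61–1.99) in cluster 6, 1.11 (0.895–1.35) in cluster 7 and 1.83 (1.52–2.20) in cluster 8 of the B6129PF1/J library, and 1.37 (1.23–1.51), 1.38 (1.22–1.56), 0.817 (0.602–1.08) and 1.36 (1.05–1.73) in C57BL/6J. Clusters 5, 6 and 8 were not apart from each other, and clusters 5 and 6 were above cluster 7 in both libraries. The Schwann cells of cluster 12 followed at 0.784 and 0.550, apart from the smooth muscle cells at 0.366 and 0.218, and ECs had at most 0.0705 and 0.0594. *Lama2* was seen in 46.3% and 34.3% of cluster 5 cells (median depths of 3516.5 and 3037 UMIs) but in only 1.47% and 1.87% of RPE cells, which were deeper (5263 and 3406.5 UMIs).

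*Lama5*, the α5 chain of mature endothelial and epithelial basement membranes, had the reverse distribution. The gene lies at chr2:180176373-180225859 on the minus strand. ECs held 68.0% of its 410 UMIs in B6129PF1/J and 69.5% of its 331 UMIs in C57BL/6J. Its level was 0.703 (0.589–0.833) in *Kdr*-high, 0.531 (0.443–0.631) in *Kdr*-medium and 0.519 (0.303–0.832) in *Kdr*-low ECs of B6129PF1/J, and 0.504 (0.406–0.618), 0.449 (0.373–0.537) and 0.514 (0.299–0.823) in C57BL/6J. The EC clusters were therefore not apart from each other, nor from the smooth muscle cells at 0.569 (0.463–0.691) and 0.430 (0.339–0.537). Every stromal cluster was at or below 0.0539 in B6129PF1/J and 0.0579 in C57BL/6J, and was apart from each of the 3 EC clusters. In cluster 8 of B6129PF1/J no *Lama5* UMI was seen, where 3 UMIs would be 0.0475 per 10,000.

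*Lama4*, the α4 chain of vessels and nerves, was spread over both compartments. It was highest in Schwann cluster 12, at 0.948 (0.635–1.36) and 0.917 (0.593–1.35) UMIs per 10,000, apart from 9 of the other 12 clusters. The EC clusters had 0.357 to 0.398 in B6129PF1/J and 0.272 to 0.301 in C57BL/6J, and the stromal clusters 0.154 to 0.411 and 0.0939 to 0.289. Within the stroma, cluster 5 was below clusters 6 and 7 in both libraries. *Lama1*, the α1 chain of embryonic and some epithelial membranes, had 15 and 10 UMIs in all, of which 7 in each library were in stromal cluster 6, so that its distribution could not be resolved at this depth.

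Counted among the α chain UMIs of the ECs, *Lama5* made up 57.8% of 483 (exact Clopper-Pearson 95% interval 53.2–62.2%) in B6129PF1/J and 57.8% of 398 (52.8–62.7%) in C57BL/6J. *Lama4* made up 36.6% and 36.2%, and *Lama2* 4.97% and 6.03%, the latter 1.52% once each cell was thinned to 1700 UMIs. In the stroma *Lama2* made up 85.4% of 1379 (83.4–87.2%) and 85.6% of 882 (83.1–87.9%), with *Lama5* at 1.45% and 1.93%. Smooth muscle cells had both chains, *Lama5* at 49.5% of 204 and 49.4% of 156 and *Lama2* at 31.9% and 25%, and Schwann cluster 12 had *Lama4* at 53.7% of 54 and 61.0% of 41 with *Lama2* at 44.4% and 36.6%. UMIs are counted at the 3′ end and are not protein, so these shares are compared between cell types and do not give the make-up of the trimers.

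The starts of *Lama2* and *Lama5* are shown because these chains divide stroma from endothelium. RefSeq (GRCm38.p6) gives promoters of 5 of the 10 genes, as windows of 300 bases around a start site. That of *Lama2*, chr10:27616893-27617192 on the minus strand, starts 2816 bases inside the GENCODE gene, and that of *Lama5*, chr2:180225810-180226109 on the minus strand, starts at the GENCODE start. Capitals mark the GC box GGGCGG on either strand, and neither window holds CCAAT.
Lama2: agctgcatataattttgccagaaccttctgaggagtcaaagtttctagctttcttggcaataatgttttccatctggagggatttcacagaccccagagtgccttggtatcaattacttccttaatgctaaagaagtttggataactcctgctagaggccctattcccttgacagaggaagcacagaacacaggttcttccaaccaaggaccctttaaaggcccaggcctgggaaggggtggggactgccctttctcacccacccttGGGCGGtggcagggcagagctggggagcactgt
Lama5: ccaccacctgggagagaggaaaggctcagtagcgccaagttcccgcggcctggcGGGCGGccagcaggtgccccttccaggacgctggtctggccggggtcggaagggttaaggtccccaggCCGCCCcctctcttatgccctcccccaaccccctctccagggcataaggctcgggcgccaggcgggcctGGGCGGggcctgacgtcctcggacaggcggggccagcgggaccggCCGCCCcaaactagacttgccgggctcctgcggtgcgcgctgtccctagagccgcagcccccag
The *Lama5* window held 4 GC boxes and 24 CpG dinucleotides at 72.7% GC, and the *Lama2* window 1 GC box and 1 CpG at 50.3% GC, beside a median of 52.7% GC over 32851 promoters. A GC box was found in 4 of the 5 windows and in 35.7% of all promoters, CCAAT in 2 of the 5 and 37.4%, TATAA in 3 of the 5 and 24.9%, and the GLI motif GACCACCCA in 0 of the 5 and 0.253%, with both strands searched and each window counted once per motif. These matches describe the letters of the windows only.

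**Figure D2:**
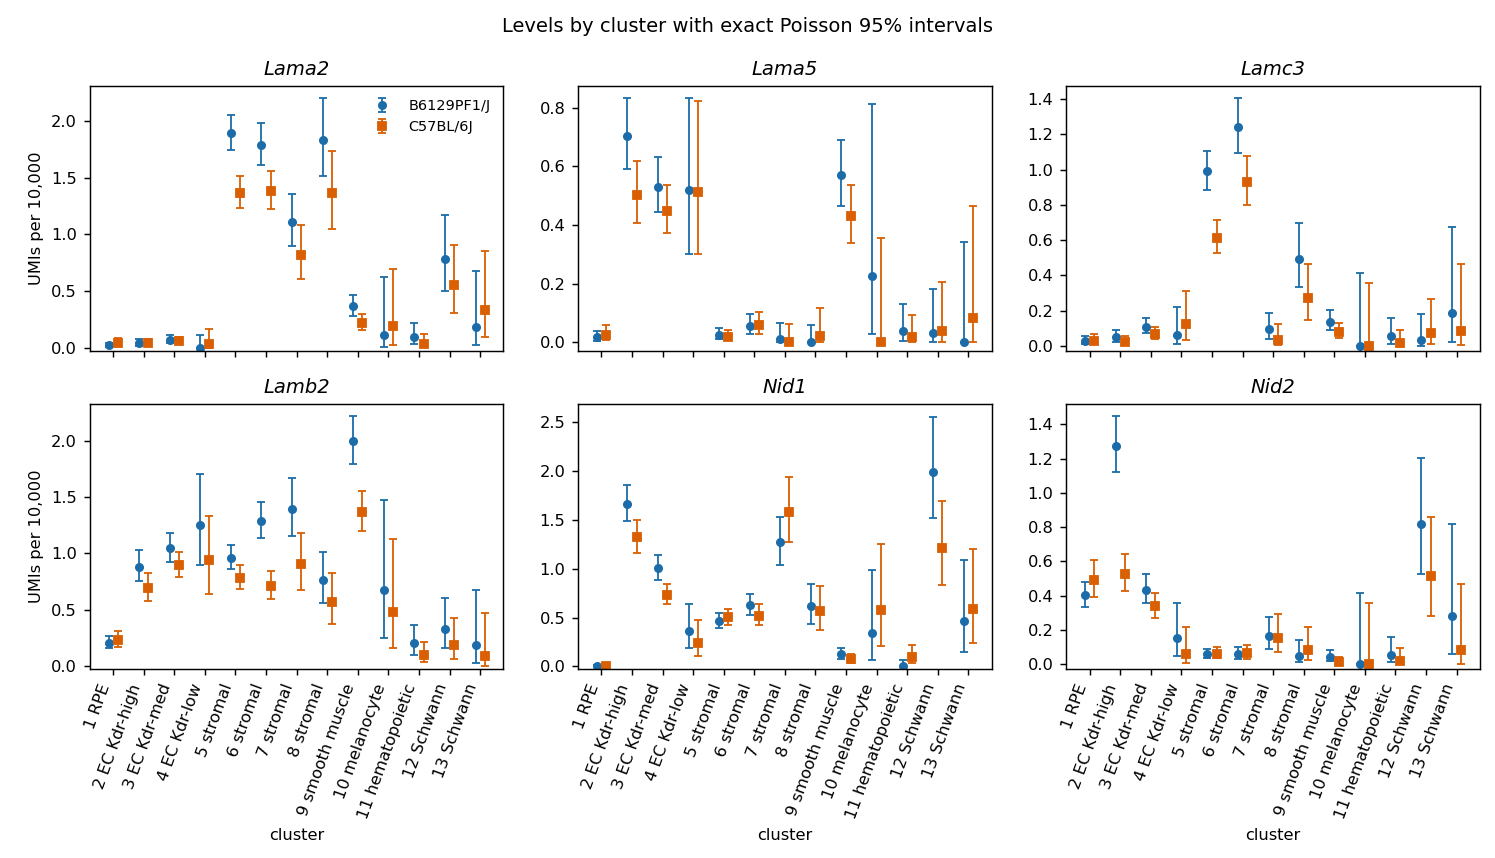
Levels of 6 genes by cluster in UMIs per 10,000, circles for B6129PF1/J and squares for C57BL/6J, with exact Poisson 95% intervals as bars. *Lama2* and *Lamc3* stand up in stromal clusters, *Lama5* in ECs and smooth muscle, and both nidogens step down from cluster 2 to cluster 4, while *Lamc3* in stromal cluster 7 is at the level of the ECs.

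The γ chains set stromal subsets apart. *Lamc1*, the γ1 chain shared by most laminins, lies at chr1:153218922-153332786 on the minus strand and was measured broadly. It was highest in stromal cluster 6 at 1.03 (0.898–1.18) and 0.689 (0.576–0.818) UMIs per 10,000, with 0.547 to 0.730 and 0.486 to 0.602 in the *Kdr*-medium and *Kdr*-high ECs and 0.654 and 0.469 in smooth muscle cells. Only 3 clusters (RPE, *Kdr*-low ECs and hematopoietic cells) were apart from and below cluster 6, with RPE at 0.0567 and 0.0572.

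*Lamc3*, the γ3 chain, which is known from the retina and the cerebral cortex, lies at chr2:31887291-31946539 on the plus strand. Stromal cells held 89.0% of its 683 UMIs in B6129PF1/J and 88.1% of its 411 UMIs in C57BL/6J. Cluster 6 had 1.24 (1.10–1.41) and 0.931 (0.799–1.08) UMIs per 10,000 and cluster 5 had 0.992 (0.885–1.11) and 0.614 (0.525–0.713). These clusters were not called apart, since their intervals met in B6129PF1/J. Cluster 8 was below both at 0.490 (0.333–0.696) and 0.272 (0.145–0.465), and cluster 7 was lower again at 0.0942 (0.0407–0.186) and 0.0340 (0.00412–0.123). Cluster 7 thus had *Lamc3* at or near the level of *Kdr*-medium ECs (0.108 and 0.0668). It had the highest stromal marker sum, mainly through *Dcn* (171 and 212 UMIs per 10,000). *Col1a1* was also highest there, but *Pdgfra* and *Lum* were highest in cluster 8 and *Pdgfrb* in cluster 6. Of the 4 listed sclera and cartilage markers, only 2 were measured. Their sum in cluster 7 was 11.7 and 2.25 UMIs per 10,000, against at most 0.0801 in any other cluster. In smooth muscle cells *Lamc3* had 0.135 and 0.0781.

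The γ3 chain made up 61.5% of 512 γ chain UMIs (57.2–65.8%) in cluster 5 and 54.6% of 465 in cluster 6 of B6129PF1/J, and 52.0% of 327 (46.4–57.5%) and 57.5% of 308 (51.7–63.1%) in C57BL/6J. In cluster 8 the share was 32.3% of 96 and 35.1% of 37, and in cluster 7 it was 13.1% of 61 and 5.00% of 40. ECs had 11.5% of 321 and 9.49% of 274, the former 5.05% in thinned cells. The step between clusters 5 or 6 and cluster 7 was wider than the counting intervals in both libraries.

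The β chains separated smooth muscle from Schwann cells. *Lamb2*, the β2 chain of vessel walls, muscle and the neuromuscular junction, lies at chr9:108479736-108490530 on the plus strand and was highest in smooth muscle cells, at 1.99 (1.79–2.21) and 1.37 (1.20–1.55) UMIs per 10,000. That cluster was apart from 11 of the other 12, the exception being *Kdr*-low ECs at 1.253 (0.899–1.70) and 0.937 (0.637–1.33). Schwann clusters 12 and 13 had 0.327 and 0.186 in B6129PF1/J and 0.183 and 0.0835 in C57BL/6J. *Lamb1*, the β1 chain of embryonic and nerve membranes (chr12:31265234-31329644, plus strand), ran the other way, with 1.34 (0.962–1.82) and 1.06 (0.712–1.53) in Schwann cluster 12, 1.40 (0.781–2.30) and 0.835 (0.400–1.53) in cluster 13, and 0.0225 and 0.0223 in smooth muscle cells.

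As a share of β chain UMIs, *Lamb2* made up 98.9% of 358 and 98.4% of 249 in smooth muscle cells, 88.1% of 523 and 87.9% of 453 in ECs and 68.6% of 1070 and 69.2% of 623 in the stroma. In Schwann cluster 12 it made up 19.6% of 51 (9.82–33.1%) and 14.7% of 34 (4.95–31.1%). Within the stroma, cluster 8 was nearest to an even split, with *Lamb1* at 51.0% of 98 and 42.6% of 47. RPE cells had 54.7% of 137 (46.0–63.3%) and 57.4% of 94 (46.8–67.6%) as *Lamb1*, the only cell type besides Schwann cells in which more β1 than β2 UMIs were counted in both libraries, although both of its intervals included an even split.

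**Figure D3:**
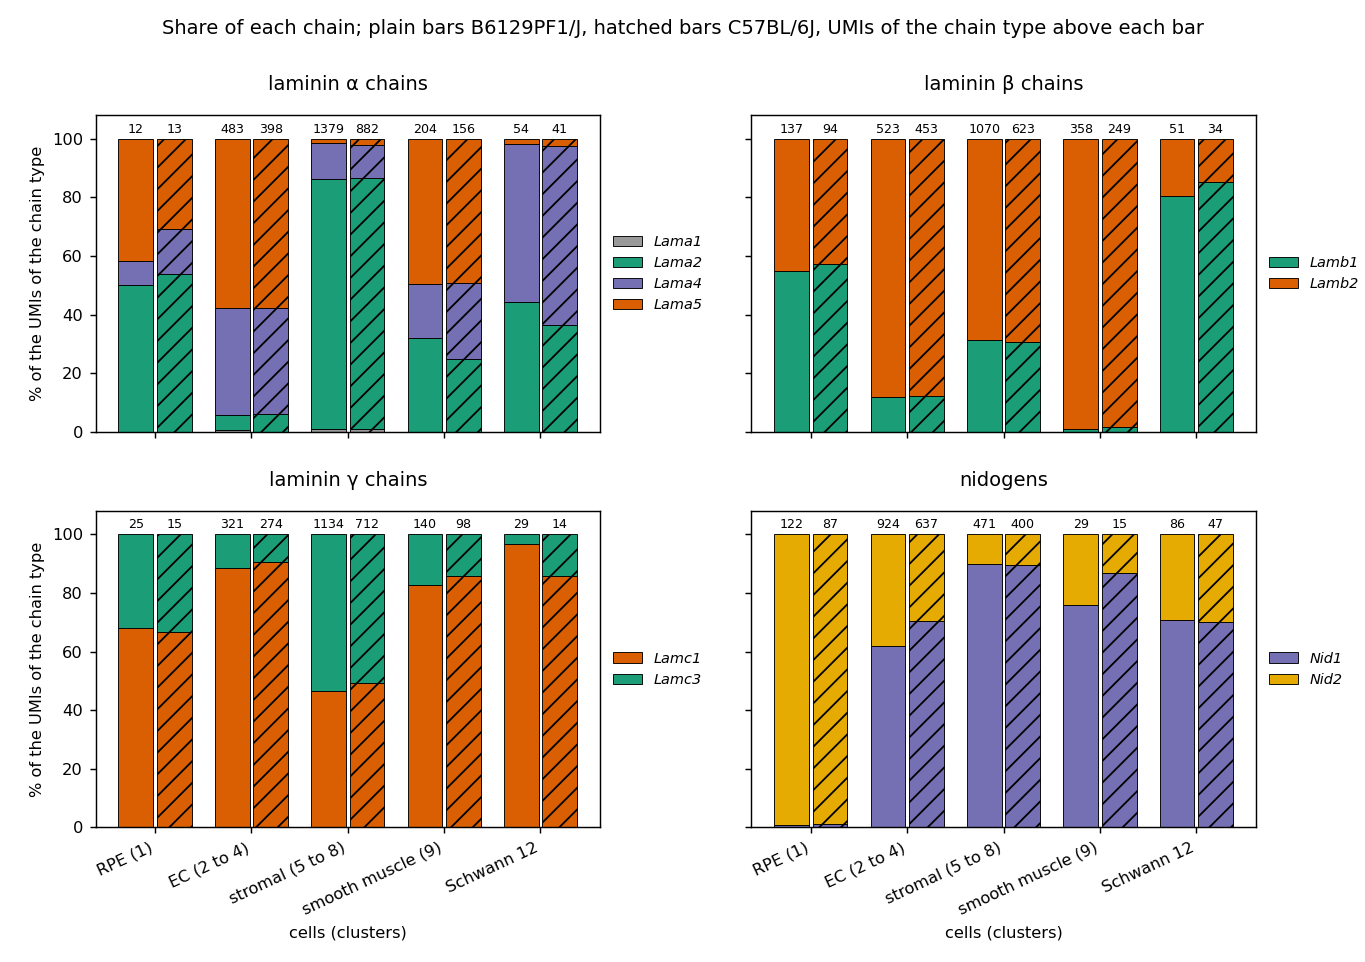
Share of each gene among the UMIs of its chain type in 5 kinds of cells, with the total UMIs above each bar, plain bars for B6129PF1/J and hatched bars for C57BL/6J. *Lama5* and *Lama4* fill the EC bars and *Lama2* the stromal bars, *Lamb2* nearly fills smooth muscle, and *Nid2* nearly fills RPE.

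The nidogens differed most in the RPE. *Nid2* (chr14:19751265-19811787, plus strand) had 121 UMIs in RPE cells of B6129PF1/J and 86 in C57BL/6J, while *Nid1* (chr13:13437551-13512269, plus strand) had 1 in each. The RPE level of *Nid2* was 0.403 (0.335–0.482) and 0.492 (0.394–0.608) UMIs per 10,000, and that of *Nid1* 0.00333 and 0.00572. *Nid2* therefore made up 99.2% of 122 nidogen UMIs (95.5–100%) and 98.9% of 87 (93.8–100%) in RPE cells, against 38.2% of 924 and 29.7% of 637 in ECs and 9.98% of 471 and 10.5% of 400 in the stroma. A *Nid2* UMI was seen in 23.1% and 19.3% of RPE cells but in 1.07% and 0.432% of smooth muscle cells (median depths of 4635 and 3803 UMIs). RPE cells had 137 and 94 β chain UMIs but only 12 and 13 UMIs for all α chains and 25 and 15 for both γ chains. Shares within the α and γ chains of the RPE therefore had wide intervals. *Lamc1* made up 68% (46.5–85.1%) and 66.7% (38.4–88.2%) of the γ chain UMIs.

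Both nidogens stepped down with *Kdr* over the ECs, which *Lama5* did not. *Nid1* had 1.66 (1.49–1.86) UMIs per 10,000 in *Kdr*-high, 1.00 (0.881–1.14) in *Kdr*-medium and 0.367 (0.189–0.640) in *Kdr*-low ECs of B6129PF1/J, and 1.33 (1.16–1.503), 0.735 (0.636–0.845) and 0.242 (0.104–0.476) in C57BL/6J. All 3 steps were apart. *Nid2* had 1.28 (1.12–1.45), 0.435 (0.356–0.527) and 0.153 (0.0496–0.357) in B6129PF1/J and 0.526 (0.426–0.642), 0.338 (0.272–0.415) and 0.0604 (0.00732–0.218) in C57BL/6J, where cluster 2 was above both others and clusters 3 and 4 were not apart.

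Outside the ECs, *Nid1* was high in Schwann cluster 12, at 1.99 (1.53–2.56) and 1.21 (0.833–1.70), and in stromal cluster 7, at 1.27 (1.04–1.54) and 1.58 (1.28–1.94). Cluster 7 was above the other stromal clusters, which had 0.469 to 0.627 and 0.502 to 0.565. Its *Nid1* UMIs were unevenly spread, with up to 11 in 1 cell of B6129PF1/J and 9 in 1 cell of C57BL/6J while 24.9% and 21.5% of its cells held any. *Nid2* was low in the stroma, at 0.0475 to 0.165 and 0.0614 to 0.153. Smooth muscle cells had little of either nidogen, 0.163 (0.109–0.235) for both summed in B6129PF1/J and 0.0837 (0.0468–0.138) in C57BL/6J, although they had 3.96 and 2.81 UMIs per 10,000 of laminin chains.

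Hematopoietic cells had the lowest sum of all 10 genes, 0.512 (0.340–0.739) and 0.495 (0.334–0.706) UMIs per 10,000. The highest sums were in Schwann cluster 12 (7.19 and 4.99) and stromal cluster 6 (7.01 and 5.03). Melanocytes, with 16 and 26 cells, gave 16 and 21 UMIs for all 10 genes, too few to describe.

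The other components of basement membranes, listed by name, had their own distributions. *Col4a1* and *Col4a2*, the common chains of collagen IV, had 2.48 and 2.46 UMIs per 10,000 in *Kdr*-high ECs of B6129PF1/J and 1.89 and 1.84 in C57BL/6J, with 2.97 and 2.37 and then 1.81 and 1.48 in stromal cluster 6. *Col4a3* and *Col4a4*, chains of the collagen IV of kidney and other specialized membranes, were highest in RPE cells, at 0.840 and 0.980 in B6129PF1/J and 0.744 and 0.789 in C57BL/6J, where *Col4a1* was 0.0467 and 0.0286. *Hspg2* (perlecan) was highest in *Kdr*-high ECs at 2.77 and 2.08.

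Among laminin receptors, *Itga6* (integrin α6) was highest in *Kdr*-medium ECs at 1.67 and 1.54 UMIs per 10,000 and at most 0.106 and 0.0511 in the stromal clusters. *Itga7* (integrin α7, the receptor of muscle) was highest in smooth muscle cells at 1.76 and 1.77 and next in stromal cluster 6 at 0.911 and 1.07. *Itgb4*, the partner of integrin α6 in epithelia and Schwann cells, was highest in Schwann cluster 12 at 1.27 and 1.06. *Dag1* (dystroglycan) was highest in Schwann cluster 13 at 2.70 and 3.76. *Bcam*, a receptor for the α5 chain, was highest in *Kdr*-low ECs of B6129PF1/J and smooth muscle cells of C57BL/6J, at 5.96 and 5.20 in *Kdr*-low ECs and 5.74 and 6.52 in smooth muscle cells, with 0.206 to 0.271 in stromal clusters 5, 7 and 8 and 1.17 in cluster 6 of B6129PF1/J.

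The genes whose levels, as log2(UMIs per 10,000 + 0.1), over the 13 clusters were most like those of a member, by the smaller of the 2 libraries' Pearson r among 9664 genes, were *Rbms3* (0.94), *Col3a1* (0.93) and *Zfhx4* (0.92) for *Lama2* and *Tcf21* (0.90), *Ccl19* (0.90) and *Shisa9* (0.89) for *Lamc3*. For *Lama5* they were *Cd93* (0.91), *Esam* (0.90) and *Tcf15* (0.87), and for *Lamb2* they were *Procr* (0.89), *Rbfox2* (0.88) and *Wfdc1* (0.88). *Coro2b* (0.88) led for *Nid2*, *Itih5* (0.86) for *Lamb1*, *Wtap* (0.89) for *Nid1*, *Hnrnpr* (0.88) for *Lamc1* and *Dhx30* (0.85) for *Lama4*. The points are clusters that share a library, so these values are descriptions.

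Most levels were lower in the C57BL/6J library. Of 72 pairs of a member and a cluster with at least 10 UMIs in a library, 60 (83.3%) were lower in C57BL/6J, against 46.7% of all 95861 such pairs of a gene and a cluster, and the median log2 difference was -0.42, against 0.04 over all. Lower by at least 1.5 times with intervals apart were 5 pairs, beside a background of 1.75%, and higher were 0, beside a background of 1.98%. The 5 were *Nid2* in *Kdr*-high ECs (1.28 against 0.526, 2.43 times), *Lamc1* in stromal cluster 8 (1.03 against 0.503, 2.05 times), *Lamb2* in stromal cluster 6 (1.29 against 0.710, 1.81 times), *Lamc3* in cluster 5 (0.992 against 0.614, 1.62 times) and *Lamb1* in cluster 5 (0.450 against 0.292, 1.54 times). In the thinned cells, 3 of 58 pairs passed the threshold toward lower, beside a background of 1.39%. *Nid2* in *Kdr*-high ECs was at 1.10 against 0.598 in these cells, a smaller difference. The median log2 difference of the members was then -0.46 against 0.05 over all genes. Whether the difference belongs to the strain, the mice or the library cannot be told apart.

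In the *Ihh* comparison the targeted pathway was lower in the deletion: *Ihh* had a mean of 1.53 FPKM in *Ihh*+/+ and 0.454 in *Ihh* iΔEC/iΔEC, and the Hedgehog target *Gli1* 9.40 and 3.15. In whole tissue, fewer cells of a type and less RNA per cell cannot be told apart. A gene was counted as past the threshold when its group means, with 0.1 FPKM added to each, differed by at least 1.5 times and the higher mean was at least 1 FPKM. Of the 9 members that reached 1 FPKM, 2 were past it toward lower (background 2.41% of 11411 genes) and 0 toward higher (background 2.02%), and 7 of the 9 were below control. The median log2 ratio of these members on the same scale was -0.39. That of all genes was -0.04, also below control, and the share of all genes below control was not counted.

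*Lamc3* had the largest difference of the members, 6.66 FPKM in *Ihh*+/+ and 2.39 in *Ihh* iΔEC/iΔEC, 2.79 times lower. Its log2 ratio was -1.44, and 35 of the 11411 genes (0.307%, *Lamc3* included) were at or below it. *Lama2* followed at 4.61 and 2.57 FPKM, 1.80 times lower, with 130 genes (1.14%) at or below it. Both genes had most of their single-cell UMIs in the stroma. So did *Lamb1* (62.8% and 55.3%), which was above control. *Lamc1*, with 53.7% and 48.6% there, was below control but not past the threshold.

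The remaining members lay within 1.5 times. *Nid1* had 8.83 and 6.35 FPKM, *Lamc1* 9.60 and 7.05, and *Lama4* 4.26 and 3.23. *Lamb2*, the most abundant chain per length in this tissue, had 35.4 and 30.2, and *Lama5* 3.08 and 2.90. *Lamb1* and *Nid2* were above control, at 8.71 and 9.51 and at 18.2 and 21.2, and *Lama1* was at 0.0600 and 0.0647. *Nid2* (121 and 86) and *Lamb1* (75 and 54) were the members with most UMIs in RPE cells. *Lamb2* followed at 62 and 40 and was below control. Most UMIs of *Nid2* were, however, in ECs (63.1% and 56.4%), and most of *Lamb1* in the stroma (62.8% and 55.3%). Whether RPE content bears on these values was not tested. Per length, *Lamc3* went from 41.0% to 25.3% of the γ chain FPKM, *Lama2* from 38.4% to 29.3% of the α chain FPKM, and *Nid2* from 67.3% to 77.0% of the nidogen FPKM.

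**Figure D4:**
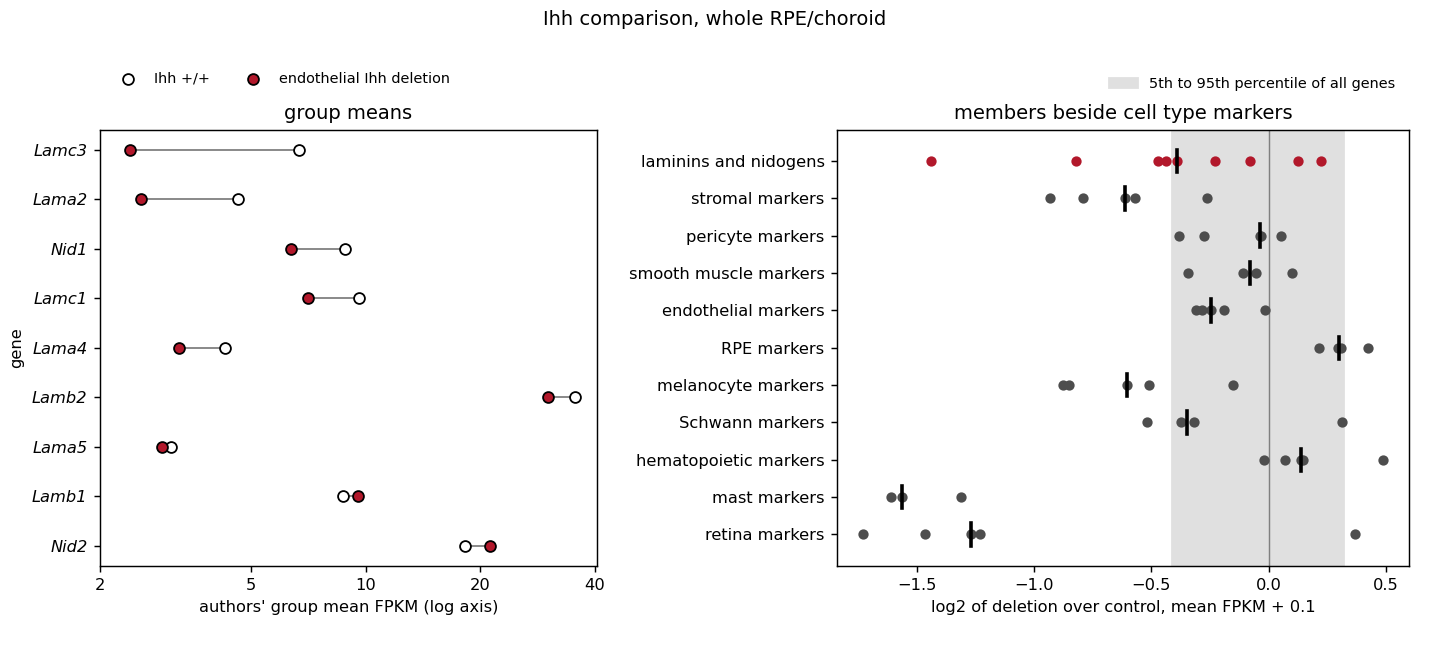
Left, the authors' mean FPKM of 9 members (log axis) in *Ihh*+/+ (open) and *Ihh* iΔEC/iΔEC (filled) RPE/choroid. Right, log2 ratios of the members and of cell type markers with at least 1 FPKM (dots, medians as bars) over the range from the 5th to the 95th percentile of all genes (-0.41 to 0.32), showing *Lamc3* at -1.44 and *Lama2* at -0.82 beside stromal markers from -0.93 to -0.26.

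Markers of several cell types moved with the members in this tissue. All 5 stromal markers were below control, 3 of them past the threshold, with a median log2 ratio of -0.61 and a sum of 636 FPKM in *Ihh*+/+ and 411 in *Ihh* iΔEC/iΔEC, and none was at 0. They were 1.20 (*Pdgfrb*) to 1.91 (*Lum*) times lower, so that *Lama2* lay within their range and *Lamc3* outside it. The pericyte markers, whose sum was high in stromal cluster 6 and in smooth muscle cells, mainly through *Rgs5*, had a median of -0.04 and a sum of 88.7 and 75.8 FPKM, none past the threshold. The smooth muscle, Schwann and EC markers had medians of -0.08, -0.35 and -0.25, none past it, and the RPE markers were above control in 4 of 4 that reached 1 FPKM, with a median of 0.30. Melanocyte markers (3 of 5), mast cell markers (3 of 3) and retina markers (4 of 5, all but *Glul*) were also past the threshold toward lower. The part of these shifts in the members' values was not tested.

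Of the other basement membrane genes in this comparison, *Col15a1*, a collagen of vessel and muscle membranes, had 7.91 and 4.43 FPKM, *Smoc2*, a matricellular protein, 7.11 and 3.43, and *Ntn1* (netrin-1) 17.8 and 11.5, each past the threshold toward lower. Collagen IV had 0 of 6 chains past it toward lower and 1 toward higher (*Col4a6*, 0.652 and 1.40), with *Col4a1* at 15.0 and 11.5 and *Col4a3* at 15.5 and 15.7. None of the 8 laminin receptors and none of the 6 genes of the dystroglycan complex that reached 1 FPKM was past it in either direction.

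The same genes were then read in cultured GLI1+ cells given SAG, which had *Gli1* at 0.0280 FPKM with DMSO and 3.65 with SAG and *Ptch1* at 1.13 and 10.1. These cultures carried all 5 stromal markers (*Dcn* at 842 and 836 FPKM), and the smooth muscle markers *Acta2* (335 and 356), *Tagln* (277 and 276) and *Cnn1* (6.66 and 6.38). The other smooth muscle markers, *Myh11* (0.897 and 0.765) and *Des* (0.193 and 0.197), were below 1 FPKM. Of the EC markers, *Emcn* was at 5.21 and 6.46 FPKM and the other 4 were below 1 FPKM, with *Cdh5* at 0.0680 and 0.141. Of the pericyte markers, *Cspg4* (1.89 and 1.90) and *Notch3* (1.58 and 1.62) were above 1 FPKM, and *Rgs5*, *Kcnj8* and *Abcc9* were below it. Of the 7 members that reached 1 FPKM, 0 were past 1.5 times toward lower (background 2.37% of 10325 genes) or toward higher (background 1.3%). The 2 with the largest ratios were *Nid2*, with 101.7 FPKM in DMSO and 74.0 in SAG, and *Lama4*, with 31.9 and 25.3. *Lama2*, which was lower in the *Ihh* deletion, had 4.85 and 5.70. *Nid1* had 64.2 and 61.8, *Lamb1* 46.5 and 46.4, *Lamb2* 35.8 and 32.9 and *Lamc1* 21.3 and 19.9.

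*Lamc3* could not be followed in culture, since it was at 0.0537 FPKM with DMSO and 0.0693 with SAG, 0.251% of the γ chain FPKM with DMSO. *Lama5* was at 0.177 and 0.179, and *Lama1* at 0.0800 and 0.186. The cultures had *Lama4* as 86.2% of the α chain FPKM and *Lama2* as 13.1% with DMSO. In *Ihh*+/+ tissue *Lama4* was 35.5% of the α chain FPKM. The stromal clusters had 12.3% and 11.3% of their α chain UMIs as *Lama4*, but UMIs, unlike FPKM, are not scaled for gene length. The tissue and culture tables were normalized separately and the cells were passaged, so these levels are set side by side only.

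**Figure D5:**
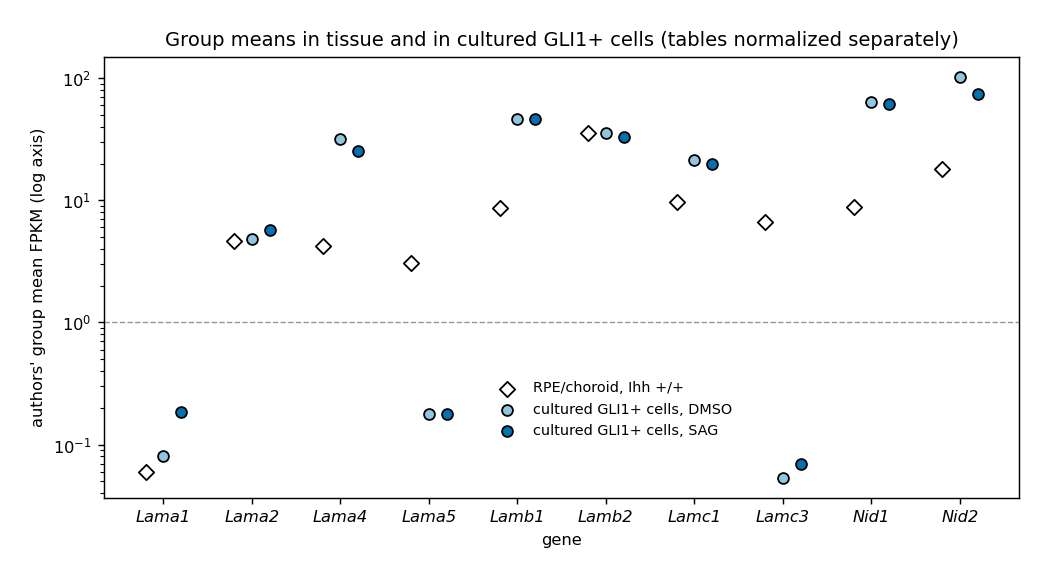
Authors' mean FPKM (log axis) of the 10 genes in *Ihh*+/+ RPE/choroid (diamonds) and in cultured GLI1+ cells with DMSO (light circles) or SAG (dark circles), the dashed line marking 1 FPKM. The DMSO and SAG circles of the 7 members above 1 FPKM lie within 1.5 times of each other, and *Lamc3* is 6.66 FPKM in tissue but below 0.1 in culture.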

How the data were processed

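The authors aligned scRNAseq reads to mm10 with Cell Ranger and deposited raw UMI counts per gene and cell after removing cells and genes with low counts, with the cluster of each cell. The deposited averages per cluster are on a natural log scale, ln(1 + UMIs per 10,000) averaged over cells by the authors, and served only as an alternative. For bulk samples the authors aligned reads with STAR (2.4.0f1) and obtained FPKM from Cufflinks (2.0.2, both versions from the submitters' processing notes), deposited as means over 3 libraries per group. Values of single bulk libraries were not used here, and the depth behind an FPKM is unknown. The columns of the authors' own comparisons (fold changes and p-values) were not used, nor was a list of choroidal EC genes, which names no member.

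UMIs were summed per cluster and library and divided by the sum over all genes. Shares of cells or chains have exact Clopper-Pearson 95% intervals. A count of 0 was taken to allow 3 counts. Doublets were not removed. Ratios of bulk means used a pseudocount of 0.1 FPKM and a minimum of 1 FPKM. For thinned data, 1700 UMIs were drawn per cell. For each member with at least 100 UMIs per library, the 3 genes most like it were listed and at least the first is named. Other genes were named from lists. The members and lists were chosen with earlier results of these data known. No p-value is given, since no group has replicate values. Scripts were tested on simulated data. Gene positions are from GENCODE M21 (GRCm38, the assembly that mm10 names). The software was pandas 2.3.3, scipy 1.17.1, matplotlib 3.10.9 and numpy 2.4.6 under Python 3.11.15.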

Additional observations from a re-analysis of the deposited data

How the results depend on the processing

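No paired analysis was possible because the bulk tables hold group means only and each strain has 1 scRNAseq library, and for the same reason no replicate could be left out. Of the counts, 13 alternatives stayed within 1.5 times of the main value and 5 did not. With the threshold lowered to 25% above the lower mean, 5 members were lower in the *Ihh* comparison (*Lama2*, *Lama4*, *Lamc1*, *Lamc3* and *Nid1*) in place of 2, and 2 in the SAG comparison (*Lama4* and *Nid2*) in place of 0. Without the minimum of 1 FPKM, 1 member (*Lama1*) passed in the SAG comparison. The shares of all genes past these settings were not counted, so these counts have no background. At a threshold of 2 times, 2 of 72 pairs of a member and a cluster were lower in C57BL/6J (background 1.03%), in place of 5. In cells thinned to 1700 UMIs, 3 of 58 were lower (background 1.39%). The other pseudocounts and median-of-ratios scaling left *Lama2* and *Lamc3* past 1.5 times in the *Ihh* comparison, with *Lamc3* at a log2 ratio of -1.18 with a pseudocount of 1. Of 60 levels and 60 shares, 58 and 50 moved by less than their margin of counting error. Of 60 log2 ratios, 53 were counted as close to the main value, but ratios of group means have no measured error. No value that passed a threshold changed sign. Counting error limits the clusters of few cells (10 and 13), and free RNA was not removed.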

Other observations

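Stromal cells of clusters 5 to 8 with and without a *Gli1* UMI were compared after the bulk values had been seen. In B6129PF1/J, *Lamc3* had 0.558 (0.400–0.757) UMIs per 10,000 in 170 cells with a *Gli1* UMI and 0.951 (0.874–1.03) in 1564 without, and in C57BL/6J it had 0.549 (0.365–0.793) in 141 cells and 0.639 (0.572–0.712) in 1619. Over clusters 5 to 8 together, the *Lamc3* value of cells with a *Gli1* UMI was the lower in both libraries, with intervals that overlap in C57BL/6J. *Gli1* had 202 and 150 UMIs in all, so a cell without a *Gli1* UMI may still express it. Whether Hedgehog input bears on *Lamc3* was not tested. Within cluster 5, the values were 0.744 (0.482–1.10) and 1.02 (0.907–1.15) in B6129PF1/J and 0.656 (0.395–1.02) and 0.609 (0.516–0.714) in C57BL/6J, with intervals that overlap. Within cluster 6, they were 0.673 (0.336–1.21) and 1.29 (1.14–1.47) in B6129PF1/J, with intervals that overlap, and 0.781 (0.337–1.54) and 0.940 (0.803–1.09) in C57BL/6J. Of the cells with a *Gli1* UMI, 47 of 170 (27.6%) in B6129PF1/J and 28 of 141 (19.9%) in C57BL/6J were in clusters 7 and 8, where *Lamc3* was lower than in clusters 5 and 6, against 298 of 1564 (19.1%) and 290 of 1619 (17.9%) of the cells without. *Lamb1* was lower in cells with a *Gli1* UMI in B6129PF1/J, at 0.272 (0.166–0.420) against 0.530 (0.473–0.592), and had 0.196 (0.0940–0.360) against 0.348 (0.300–0.403) in C57BL/6J, where the intervals overlap. A *Gli1* UMI is more readily seen in deeper cells, whose median was 4000 against 3578 UMIs in B6129PF1/J and 3346 against 2973 in C57BL/6J.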
